A study of Mus musculus with 11 samples.

Results

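In mouse ovarian granulosa cells, 476 gene IDs were listed at 0 RNA counts in every RNA library and yet carried H3K4me3, the histone mark found at gene start sites. They were chosen by measured values: 0 counts in all 6 RNA libraries, and a mean of 5 or more CPM (counts scaled to a common library total) over the 4 H3K4me3 libraries. They were 476 of the 24525 IDs present in both tables (1.94%) and 9.28% of the 5129 IDs with no RNA count. The IDs set beside them were the 4653 with 0 RNA counts and under 5 CPM of H3K4me3, the 14215 with RNA counts and 5 CPM or more, and the 5181 with RNA counts and under 5 CPM. The cells came from ovaries of C57BL/6 mice, either 48 h after equine chorionic gonadotropin (eCG, a hormone that acts on the follicle-stimulating hormone receptor in mice, and which the labels call FSH) or from untreated animals (0 h). RNA sequencing covered 3 libraries at 48 h and 3 at 0 h, labelled postnatal day 21, from cells released by puncturing follicles. Chromatin immunoprecipitation of H3K4me3 covered 2 libraries at 48 h and 2 at 0 h, with no age in the labels. The labels name no genetic change in any group, and libraries of a group are described as biological replicates. No untreated group was taken at 48 h, so eCG and the passage of time cannot be told apart.

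H3K4me3 is trimethylation of lysine 4 on histone H3, placed by COMPASS-type methyltransferases around transcription start sites, above all at CpG islands. It is known at active promoters and also, together with H3K27me3, at silenced developmental genes, where the pair is called bivalent chromatin. H3K27me3 was not measured here. A microRNA is cut from a longer primary transcript, so the hairpin gene itself is short and often lies inside another gene. Transcripts of replication-dependent histone genes lack a poly(A) tail, and whether the RNA libraries were selected for such tails is not stated in the labels. Mature microRNAs and small nucleolar RNAs are shorter than the fragments that usual RNA libraries retain.

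MicroRNA genes were the most frequent class, with 156 of the 476 members, and 147 of them had a mature sequence in RefSeq (GRCm38.p6). These gave 211 distinct seeds, the stretch of bases 2 to 8 that pairs with target RNAs, of which 16 occurred in 2 or more member genes. The families with the most members, shown because their genes sit at several places and differ in H3K4me3, are printed 5′ to 3′ with the seed in capitals. The miR-15/16 family shared AGCAGCA over 5 genes.
mmu-miR-322-5p (Mir322): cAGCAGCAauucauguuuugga
mmu-miR-195a-5p (Mir195a): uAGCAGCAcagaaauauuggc
mmu-miR-497a-5p (Mir497): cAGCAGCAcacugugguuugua
mmu-miR-15b-5p (Mir15b): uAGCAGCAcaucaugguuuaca
mmu-miR-16-5p (Mir16-2): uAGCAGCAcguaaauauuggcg
The miR-17 and miR-92 families each had a seed shared by 3 genes, and so did miR-19, on chromosome 14 and on the X chromosome.
mmu-miR-17-5p (Mir17): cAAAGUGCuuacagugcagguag
mmu-miR-106a-5p (Mir106a): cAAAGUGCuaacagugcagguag
mmu-miR-20b-5p (Mir20b): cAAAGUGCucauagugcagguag
mmu-miR-19a-3p (Mir19a): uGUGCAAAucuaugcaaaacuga
mmu-miR-19b-3p (Mir19b-1 and Mir19b-2): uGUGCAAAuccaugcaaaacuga
mmu-miR-92a-3p (Mir92-1 and Mir92-2): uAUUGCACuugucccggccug
mmu-miR-363-3p (Mir363): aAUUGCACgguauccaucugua
The miR-125 family shared CCCUGAG over 3 genes, one of which was lower at 48 h.
mmu-miR-125b-5p (Mir125b-1 and Mir125b-2): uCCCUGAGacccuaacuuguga
mmu-miR-351-5p (Mir351): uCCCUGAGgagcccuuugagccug
The remaining sequences belong to Mir190b, with the largest log2 rise at 48 h, to Mir1906-1 and Mir1906-2, to Mir1904 and Mir5123, which were called under every alternative, and to Mir101c, the member with the highest level.
mmu-miR-190b-5p (Mir190b): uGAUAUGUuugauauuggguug
mmu-miR-1906 (Mir1906-1 and Mir1906-2): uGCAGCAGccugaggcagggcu
mmu-miR-1904 (Mir1904): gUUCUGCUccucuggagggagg
mmu-miR-5123 (Mir5123): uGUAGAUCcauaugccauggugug
mmu-miR-101c (Mir101c): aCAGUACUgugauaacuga

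Promoter windows from RefSeq (GRCm38.p6), which run from 250 bases before to 50 bases after a gene's start, were found for 220 members. Those of 4 members are printed on the strand of the gene with each CpG dinucleotide in capitals, because the windows of members spanned both CpG-rich and CpG-poor sequence. Atoh1 is a neural transcription factor with the highest level among the lineage factors, and Nkx6-1 is the lineage factor whose H3K4me3 was called higher at 48 h. Gm35978 is a long noncoding RNA gene beside Notch1, and Vmn2r9 is a vomeronasal receptor gene. Their windows held 20 CpG in Atoh1, 40 in Nkx6-1, 31 in Gm35978 and 2 in Vmn2r9.
Atoh1, chr6:64728875-64729174, plus strand: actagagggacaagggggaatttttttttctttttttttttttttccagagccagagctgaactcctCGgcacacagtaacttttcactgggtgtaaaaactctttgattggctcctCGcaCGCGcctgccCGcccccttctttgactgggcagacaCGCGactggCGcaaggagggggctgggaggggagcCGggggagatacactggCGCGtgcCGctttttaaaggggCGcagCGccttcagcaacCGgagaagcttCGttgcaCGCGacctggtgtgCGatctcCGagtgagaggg
Nkx6-1, chr5:101664662-101664961, minus strand: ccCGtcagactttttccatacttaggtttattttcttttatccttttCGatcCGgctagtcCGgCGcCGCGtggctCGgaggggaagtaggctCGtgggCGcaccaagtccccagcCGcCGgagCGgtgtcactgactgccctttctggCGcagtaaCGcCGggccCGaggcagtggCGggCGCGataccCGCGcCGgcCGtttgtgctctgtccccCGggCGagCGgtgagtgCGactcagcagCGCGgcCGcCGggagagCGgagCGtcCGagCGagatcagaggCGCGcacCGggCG
Gm35978, chr2:26503677-26503976, plus strand: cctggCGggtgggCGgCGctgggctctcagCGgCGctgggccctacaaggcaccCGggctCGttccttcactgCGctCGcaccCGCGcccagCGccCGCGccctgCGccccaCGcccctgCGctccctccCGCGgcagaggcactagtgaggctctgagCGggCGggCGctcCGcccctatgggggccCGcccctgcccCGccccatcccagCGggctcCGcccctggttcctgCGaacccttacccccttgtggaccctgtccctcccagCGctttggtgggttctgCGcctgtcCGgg
Vmn2r9, chr5:108852461-108852760, minus strand: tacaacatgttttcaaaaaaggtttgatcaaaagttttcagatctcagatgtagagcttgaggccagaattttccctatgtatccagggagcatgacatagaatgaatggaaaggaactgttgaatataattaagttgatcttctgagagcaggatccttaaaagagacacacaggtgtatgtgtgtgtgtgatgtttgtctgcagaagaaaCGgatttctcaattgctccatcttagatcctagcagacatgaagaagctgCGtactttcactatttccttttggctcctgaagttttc

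RNA totals were 12013849 to 26343971 counts per library and 104054357 over the 6 libraries. A gene listed at 0 could have had up to 0.0288 CPM over all of them, or 0.114 to 0.25 CPM in a single library, as the limit that 3 counts set, which covers counting error only. The H3K4me3 totals were 17137463 and 17968033 counts at 48 h, against 15124233 and 11989769 at 0 h. All 5 granulosa markers (Fshr, Foxl2, Amh, Inha and Cyp19a1) were detected and summed to 17192 to 18168 RNA CPM at 48 h, against 9223 to 11249 at 0 h. Markers of other ovarian cells were all detected too. Their sums were 18.9 to 43.8 RNA CPM at 48 h, against 56.2 to 64.8 at 0 h, for 5 oocyte genes. For 5 endothelial genes they were 140 to 409 against 79.6 to 80.7, and for 5 immune genes 111 to 177 against 158 to 241. For 3 red cell genes they were 156 to 655 against 74.9 to 136, and for 4 theca genes 935 to 2533 against 1137 to 1588. As every marker had RNA counts, none could be among the 476 members. The part of other cell types in the H3K4me3 values was not tested. In these bulk samples, a mark on few cells and a weak mark on all cells cannot be told apart, nor can fewer cells of a type and less RNA per cell.

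The members had a median of 21.0 CPM of H3K4me3, with a range of 5.02 to 1894 CPM. The median was 1.5 CPM for the other IDs without RNA counts and 63.1 CPM for the IDs with RNA counts and 5 CPM or more. These levels follow from the rule and are given as a description. Of the members, 134 lay between 5 and 10 CPM, 149 above 50 CPM and 61 above 100 CPM. Just above the threshold were 4930524O08Rik at 5.02 CPM, Vmn1r256 and Vmn1r246 with identical counts at 5.03, Gm2837 at 5.13, the Wnt inhibitor gene Dkk1 at 5.13 and Vmn1r159 at 5.17. Just below it, and therefore left out, were Mir135b at 4.98 CPM, Mir3080 at 4.96, Mir142b at 4.95, AY702102 at 4.94 and Vmn1r101 and Vmn1r149 at 4.88.

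By class, the 8 genes listed by symbol as replication-dependent histones had the highest median, 101 CPM (59.9 to 124), and all 8 listed genes without RNA counts were members. Both H4bc24 (synonym Hist1h2br), with the counts of H2bc23 and 59.9 CPM, and H3f4 at 21.9 CPM have symbols outside that list and were counted with the other protein-coding genes. The 15 other small RNA genes had a median of 76.5 CPM (11.6 to 141), the 18 pseudogenes 75.7 CPM (5.13 to 160) and the 156 microRNA genes 42.1 CPM (5.31 to 1894). Next came 11 IDs without an entry in the gene table at 24.3 CPM (5.56 to 455), 146 other protein-coding genes at 20 CPM (5.03 to 138) and 92 long noncoding RNA genes at 13.2 CPM (5.02 to 159). The 30 lineage transcription factors, also listed by symbol, had the lowest median, 7.67 CPM (5.33 to 44.2). Transcription factor genes outside that list, such as Sp8 at 9.99 CPM and Fezf2 at 5.76 CPM, were counted with the other protein-coding genes. As a share of the IDs of a class without RNA counts, members made up 28.8% of lineage factors, 18.7% of microRNA genes and 12.5% of long noncoding RNA genes, but 4.52% of other protein-coding genes.

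**Figure D1:**
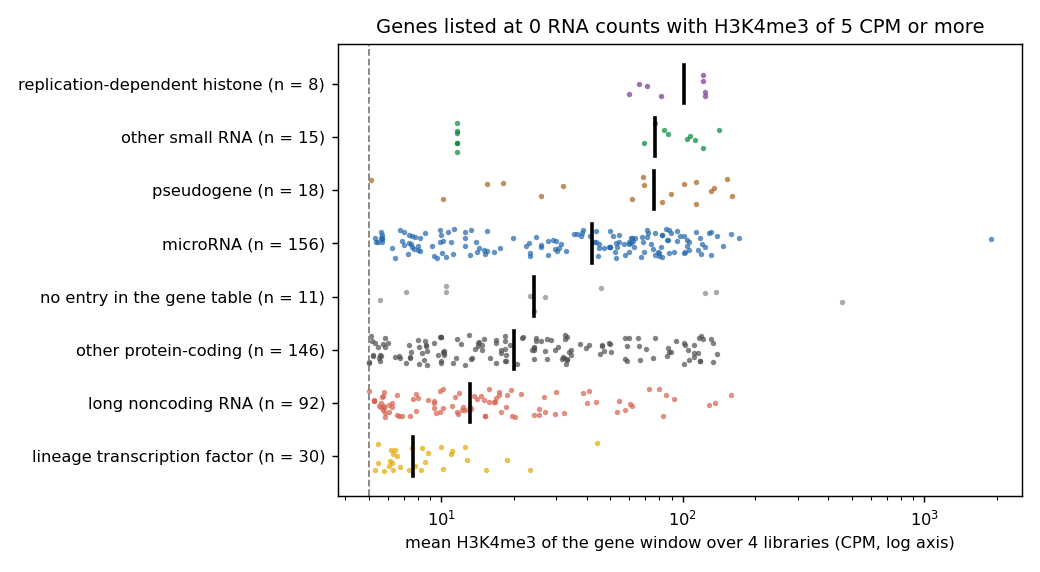
Mean H3K4me3 of each of the 476 members over 4 libraries (CPM, log axis) by class, with a black bar at the class median and a dashed line at the threshold of 5 CPM. Listed histone genes sit between 59.9 and 124 CPM, lineage transcription factors mostly near the threshold, and a single microRNA gene, Mir101c, stands at 1894 CPM.

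Whether each member was silent was not tested beyond its listing at 0 RNA counts. Several members are genes that every cell is known to use, or close copies of them. They were chosen as examples after their values were seen. Oaz1, which encodes ornithine decarboxylase antizyme (chromosome 10, 80826656 to 80829290), had 130 and 132 CPM of H3K4me3 at 48 h, against 126 and 136 at 0 h. Its counts were identical in every library to those of the pseudogene Oaz1-ps on chromosome 17. Rpl26, a protein of the large ribosomal subunit (chromosome 11, 68901566 to 68904534), had 99.1 and 92.3 CPM at 48 h, against 102 and 110 at 0 h. Ndufs5, a subunit of mitochondrial complex I, averaged 75.2 CPM, the translation factor gene Eif3j1 averaged 111 CPM and its copy Eif3j2 also 111 CPM. Amd1, the enzyme of polyamine synthesis that decarboxylates S-adenosylmethionine, and its copy Amd2 had identical counts and averaged 133 CPM. Chosen in the same way but not counted among such genes, the polyol pathway enzyme Akr1b3 averaged 89.0 CPM and Ass1, argininosuccinate synthase, 25.9 CPM. For these genes the values show only that they are listed at 0 RNA counts. How the counting treated reads that match near-identical copies is not given in the sources used here.

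Identical counts, which cannot tell 2 IDs apart, also occurred outside these genes. Among the members, 84 (17.6%) had counts equal in all 4 libraries to those of another ID, against 4.02% of all IDs in both tables, so that the 476 members held 446 distinct sets of counts. Of the 84, 48 were tied with other members alone and 36 with an ID that had RNA counts, at 0.032 to 159 RNA CPM with a median of 1.75. On a different chromosome, 8 members had a tied partner. These were Oaz1 (chromosome 10) with Oaz1-ps (17), Rps27rt (chromosome 9) with Rps27 (chromosome 3), Apoo-ps (13) with Apoo (X), Mir1906-1 (12) with Mir1906-2 (X), and Mir692-2 (4) with Mir692-3 (13). Rps27, a ribosomal protein gene, was itself at 0.803 ± 0.284 RNA CPM at 48 h and 0.816 ± 0.185 at 0 h (SD, n = 3 each), with 106 CPM of H3K4me3. The 6 member genes for 5S ribosomal RNA on chromosome 8 shared one set of counts, at 11.6 CPM.

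Among the microRNA genes, clusters that share an ancestor differed in level. Mir17hg, the host of the Mir17 to Mir92-1 cluster on chromosome 14, is a target of Myc known for driving proliferation. Its RNA was at 7.89 ± 1.87 CPM at 48 h and 26.1 ± 1.65 CPM at 0 h (SD, n = 3 each), and its H3K4me3 at 59.1 and 45.4 CPM at 48 h, against 49.1 and 53.0 at 0 h. Mir17 had 84.0 and 64.3 CPM of H3K4me3 at 48 h, against 65.6 and 69.7 at 0 h, so that the groups overlapped. Along the cluster the mean level was 70.9 CPM at Mir17, 67.6 at Mir19a, 54.2 at Mir19b-1 and 50.1 at Mir92-1. Mir18 and Mir20a lie in the same cluster at 69.2 and 61.4 CPM but had 1 RNA count each, so they are not members. The paralogous cluster on the X chromosome (52741693 to 52744593, with its host Kis2) was lower throughout and had no RNA count in any of its 7 genes. Mir106a, which shares the seed of Mir17, had 9.57 and 12.9 CPM at 48 h, against 12.6 and 9.67 at 0 h. The 7 means ran from 11.8 CPM at Kis2 to 8.05 CPM at Mir363, again with overlapping groups.

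Genes of the miR-15/16 family also ranged widely. Mir322 and Mir503, neighbours on the X chromosome that are known to restrain the cell cycle, averaged 104 and 101 CPM. The 5p seed of Mir503 is AGCAGCG, so it was not counted among the 5 genes that share AGCAGCA. Mir322 had 106 and 105 CPM at 48 h, against 105 and 102 at 0 h. Mir351 in the same cluster averaged 70.8 CPM, and Mir450-2 at its far end 5.67 CPM. Mir195a and Mir497 on chromosome 11 averaged 79.7 and 75.4 CPM, whereas Mir15b and Mir16-2, inside the condensin gene Smc4, averaged 25.9 and 22.5 CPM. Mir15a, a further gene of the family, also had no RNA count but only 1.41 CPM of H3K4me3 and so is not a member, although its host Dleu2 had 133 CPM. Among microRNA genes known from other tissues, the neuronal Mir137 averaged 23.3 CPM, Mir124a-3 10.5 CPM, Mir124a-1 8.54 CPM and Mir9-2 7.31 CPM. Mir34c, a p53 target, averaged 30.8 CPM and Mir449a, its relative in ciliated cells, 14.3 CPM.

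**Figure D2:**
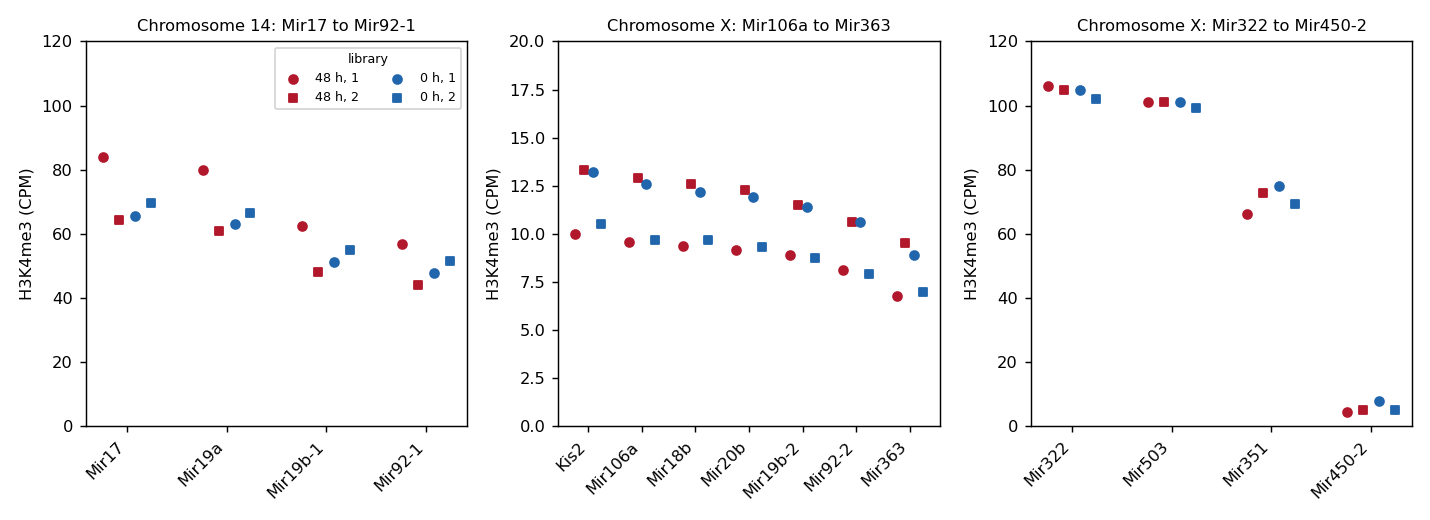
H3K4me3 (CPM) of the member genes of 3 microRNA clusters in each library, with 48 h libraries in red and 0 h libraries in blue, and a smaller vertical scale in the middle panel. The chromosome 14 cluster lies at 44.0 to 84.0 CPM and its X-linked paralogs at 6.77 to 13.3 CPM, while Mir322, Mir503 and Mir351 lie far above Mir450-2.

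The highest level of all was that of Mir101c (chromosome 9, 3038669 to 3038743), with 959 and 3761 CPM at 48 h, against 1586 and 1271 at 0 h. A single library at 48 h was high and the other was below both 0 h libraries, so the groups overlapped. The input DNA library was not used, so how much of the level at Mir101c is background was not tested. The next was ID 212427, which has no entry in the gene table, at 445 and 437 CPM at 48 h, against 464 and 474 at 0 h. Mir5121 (chromosome 7, 45126918 to 45126991) lies inside Rpl13a, a ribosomal protein gene, and averaged 171 CPM. The pseudogene Gm6793 averaged 160 CPM, the long noncoding RNA gene Gm44505 and Mir707 both 159 CPM, and the pseudogene Gm10052 153 CPM. Gm44505 overlaps the zinc-finger gene Zfp91 and has its counts in every library. Mir707 lies inside Akt1s1, which encodes a subunit of mTORC1 and also stood at 159 CPM. Mir7672 averaged 147 CPM, as did Pde12, the gene that holds it.

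Small nucleolar RNAs, which guide chemical modification of ribosomal RNA, lay in genes with RNA counts. Snord7 averaged 141 CPM, Snora24 inside Snhg8 112 CPM and Snord45c inside Rabggtb 104 CPM, and all 7 in the list had an RNA-detected gene within 5000 bp. Of the 119 small nucleolar RNA genes in both tables, 104 had RNA counts. Mascrna, cut from the 3′ end of the Malat1 transcript, averaged 107 CPM. The histone genes formed groups of copies. H3c14 (chromosome 3, 96246685 to 96247348) had 134 and 119 CPM at 48 h, against 121 and 121 at 0 h, and H3c15, H2ac18 and H2ac19 within the same stretch averaged 121 to 124 CPM. On chromosome 13, H4c17 averaged 81.1 CPM, H2ac24 71.3 CPM, H2ac23 65.9 CPM and H2bc23 59.9 CPM. The other 55 of the 63 listed histone genes had RNA counts.

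Lineage transcription factors were the class with the lowest median level. Of 39 Hox genes, which pattern the body axis, 33 had RNA counts and 2 were members. These were Hoxd1, with 7.88 and 10.4 CPM at 48 h, against 7.54 and 7.51 at 0 h, and Hoxa13, with 7.47 and 7.68 CPM at 48 h, against 6.08 and 5.75 at 0 h. In both genes the 48 h libraries lay above the 0 h libraries, but neither was called (adjusted p = 0.285 and 0.208). Among 164 other homeobox genes 63 had no RNA count and 15 were members, led by Nkx6-1, Dbx1 and En1. Nkx6-1, a factor of pancreatic beta cells and motor neurons (chromosome 5, 101659184 to 101664711), had 13.4 and 15.8 CPM at 48 h, against 10.6 and 11.3 at 0 h. Dbx1 and En1, factors of the developing spinal cord and midbrain, averaged 11.1 and 10.2 CPM. Among 146 Pax, Sox, Fox, Tbx, Gata and basic helix-loop-helix factors 35 had no RNA count and 13 were members. Atoh1, which specifies hair cells and secretory gut cells (chromosome 6, 64729125 to 64731245), had 40.3 and 50.1 CPM at 48 h, against 43.0 and 43.5 at 0 h, with overlapping groups. Further members were Ascl4 at 23.4 CPM, the proneural factor Neurog2 at 15.3 CPM and Foxa1, a pioneer factor of endoderm, at 12.6 CPM.

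Antisense or divergent noncoding partners of such factors were often at a like level, and the counts are not stated to use strand. Nkx2-2os averaged 6.24 CPM and Nkx2-2 6.42 CPM, and Dlx6os2 7.64 CPM and Dlx6 8.58 CPM, all of them members. Lhx1os averaged 11.7 CPM beside Lhx1 at 11.9 CPM, which had 1 RNA count. Msx1os averaged 14 CPM beside Msx1 at 44.4 CPM, which had 182 RNA counts. Secreted ligands of the Wnt, Fgf, Bmp and Hedgehog families gave 5 members of 9 genes without RNA counts. Gdf1 averaged 17.7 CPM and has the counts of Cers1, with which it shares a transcript, Fgf15 averaged 10.2 CPM, and Shh, with 7.41 and 7.62 CPM at 48 h, against 7.80 and 7.26 at 0 h, averaged 7.52 CPM. Of 18 ion channel and neurotransmitter receptor genes without RNA counts 4 were members, the highest being Gabrg1 at 8.63, Kcnv1 at 8.53 and Kcnq3 at 7.39 CPM.

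Several large families without RNA counts had few members or none. Of 1439 olfactory, vomeronasal and taste receptor genes without RNA counts, 7 were members, with Vmn2r9 highest at 18.5 CPM, Olfr94 at 7.45 and Olfr617 at 6.03 CPM. None of 71 keratin genes, 83 defensin-like and secreted epididymal genes or 6 clustered protocadherins without RNA counts was a member. Immunoglobulin and T-cell receptor segments had 3 IDs in both tables, all with RNA counts, and of spliceosomal, transfer and similar small RNA genes 2 had none and neither was a member. Members also lay in rows of copies. On chromosome 4, 13 members of an interferon gene cluster (88754868 to 88803802) stood at 29.6 to 50 CPM. Among them were Gm13271 with the synonym Ifnz and Gm13285 with the synonym limitin. In a wider stretch that takes in this cluster and its flanks, 4 of 21 IDs had RNA counts. On chromosome 2, 11 members of a zinc-finger gene cluster, such as Zfp965 and Zfp966, stood at 18.4 to 32.7 CPM with only 7 distinct sets of counts.

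Most members lay at or near a gene with RNA. Of 461 members with a placed position, 211 (45.8%) overlapped an RNA-detected gene and 281 (61.0%) had one overlapping or within 5000 bp. The second share was 23.6% for the other IDs without RNA counts and 63.4% for IDs with RNA counts and 5 CPM or more. Restricted to neighbours with a mean of at least 1 RNA CPM, 208 members (45.1%) had one. With neighbours of any RNA count, the median H3K4me3 level was 38.8 CPM in the 211 members that overlapped one. It was 30.1 CPM in 70 that had one within 5000 bp without overlap, and 11.7 CPM in 180 that had none. In the last group 29 members still exceeded 50 CPM. Apart from Mir101c, the 4 histone genes of chromosome 3, Amd1, Amd2 and Oaz1-ps, these included the long noncoding RNA gene 1700031P21Rik (chromosome 12, 52599984 to 52602322), with 122 and 127 CPM at 48 h, against 135 and 130 at 0 h. They also included the small RNA gene Rn4.5s at 121 CPM and Mir760 at 118 CPM. Of the microRNA genes, 114 overlapped an RNA-detected gene, with a median of 48.2 CPM, and 42 did not, with a median of 23.3 CPM. Of the lineage factors, 4 overlapped one and 24 of 30 had none within 5000 bp.

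The level also went with the distance to the nearest start site of a gene of at least 1 RNA CPM, which could be measured for 352 members. Only starts with a RefSeq promoter window were searched, and 78.4% of IDs with RNA counts and 5 CPM or more had such a window. A nearer start without a window would be missed, so distances can be too long. That distance had a median of 43982 bp in members, 175644 bp in the other IDs without RNA counts and 31521 bp in IDs with RNA counts and 5 CPM or more. It was within 1000 bp for 59 members (16.8%), against 0.136% of the other IDs without RNA counts and 16.4% of IDs with RNA counts and 5 CPM or more. The median level was 70.9 CPM in these 59 members and 40.6 CPM in 48 at 1001 to 5000 bp. It was 17.7 CPM in 85 at 5001 to 50000 bp and 11.3 CPM in 160 farther away. MicroRNA genes, measured from the 5′ end of the hairpin, made up 38, 36, 39 and 19 of these ranges, so distance and class were mixed. No lineage factor lay within 5000 bp of a start found in this way, 4 lay in the third range and 21 beyond 50000 bp. The window counted for each gene is not given in the sources used here, so how far a value includes the mark of a neighbour was not tested.

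**Figure D3:**
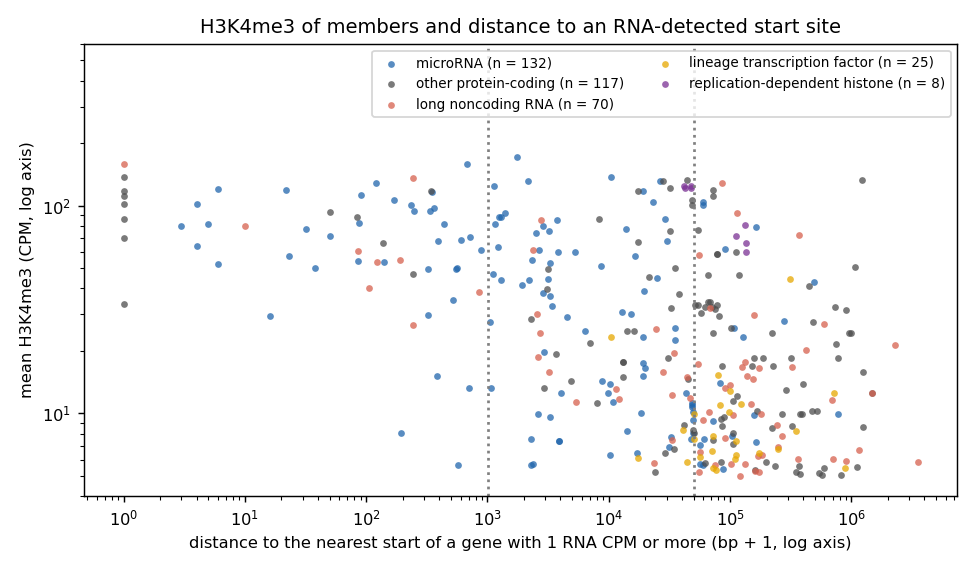
Mean H3K4me3 of members (CPM, log axis) against the distance to the nearest start of a gene with at least 1 RNA CPM (bp plus 1, log axis), coloured by class, with dotted lines at 1000 and 50000 bp. Only starts with a RefSeq promoter window were searched. Most members within 1000 bp lie above 50 CPM (45 of 59), and beyond 50000 bp 20 of 160 do.

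Promoter windows of members were intermediate in CpG content. The median number of CpG dinucleotides per window of 300 bases was 13.5 in 220 members, 2.0 in 3183 other IDs without RNA counts and 21.0 in 11146 IDs with RNA counts and 5 CPM or more. The ratio of observed to expected CpG was above 0.6 in 47.7% of members, 2.7% of the other IDs without RNA counts, 74.1% of IDs with RNA counts and 5 CPM or more, and 36.5% of all 27025 windows in the table. Lineage factors among the members had a median of 24 CpG (n = 25), like Atoh1 with 20 and Nkx6-1 with 40 in the windows printed above, and lineage factors without RNA counts under 5 CPM had 10 (n = 58). The 8 histone genes had 22.5 and the 117 other protein-coding members 9.0. Searched on both strands, TATAAA occurred in 12.3% of member windows and in 14.2% of all windows, CCAAT in 45.9% against 38.0%, and GGGCGG in 44.1% against 35.9%. In the other IDs without RNA counts the shares were 31.1% for TATAAA, 42.9% for CCAAT and 6.16% for GGGCGG. Of the 8 histone windows, 7 held CCAAT. A matching run of letters is not a site of binding, and the windows of the 156 microRNA genes are not in the table.

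**Figure D4:**
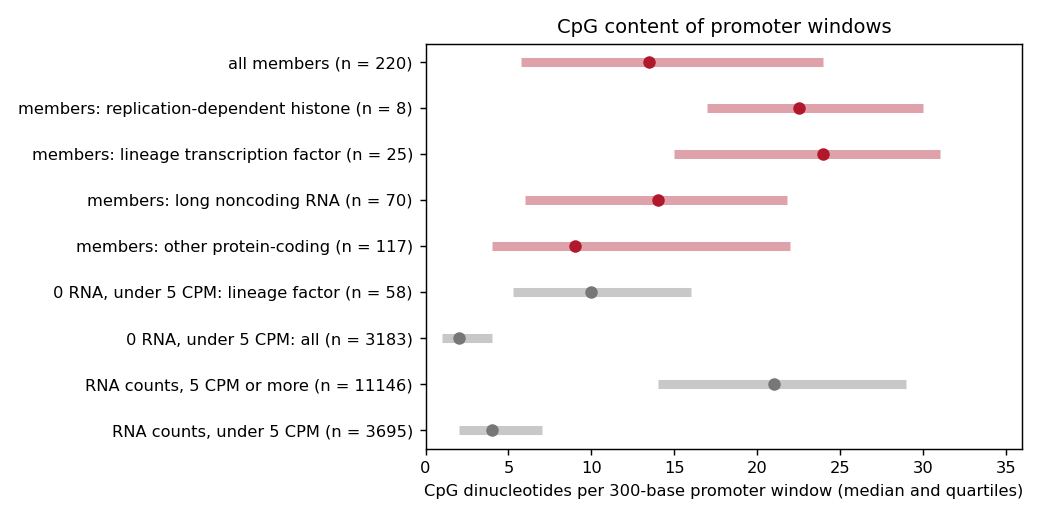
CpG dinucleotides per promoter window of 300 bases as the median (point) and quartiles (bar), for members and their classes in red and for other IDs in grey. Members as a whole (median 13.5) lie between the other IDs without RNA counts (2.0) and IDs with RNA counts and 5 CPM or more (21.0), and lineage factors among the members reach 24.

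The comparison of 48 h with 0 h asked whether the mark at these genes differed after eCG. Few members differed: 42 were called higher and 7 lower at 48 h by edgeR's quasi-likelihood test at a Benjamini-Hochberg adjusted p under 0.05 over all 24476 genes tested. The 49 calls were 10.3% of the members, against 8.42% of all genes tested and 13.6% of the genes of 5 CPM or more. Higher calls made up 8.82% of the members, against 6.35% of all genes and 10.5% of genes of 5 CPM or more, and lower calls 1.47%, against 2.08% and 3.07%. The 48 h and 0 h libraries did not overlap for 234 members (49.2%), against 50.1% of all genes tested, and for 48 of the 49 called members. The share of members called was near that of other genes. The median log2 fold change was 0.06 in members, -0.001 in all genes and 0.05 in genes of 5 CPM or more, 353 members lay within 0.25 of 0, and 15 called members exceeded 0.5 in size. The direction of the calls rested on the scaling: 85.7% of member calls were higher with TMM scaling, but with library totals alone 18 were higher and 16 lower (52.9% higher). That scaling moved the median log2 fold change of all genes to -0.055. Without 0 h replicate 1, 3 members were called higher and 2 lower. Called higher by class were 18 of 156 microRNA genes, 14 of 92 long noncoding RNA genes and 7 of 146 other protein-coding genes. So were 2 of 18 pseudogenes and 1 of 30 lineage factors. Called lower were 4 microRNA genes and 1 each of the other small RNA, long noncoding RNA and other protein-coding genes.

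**Figure D5:**
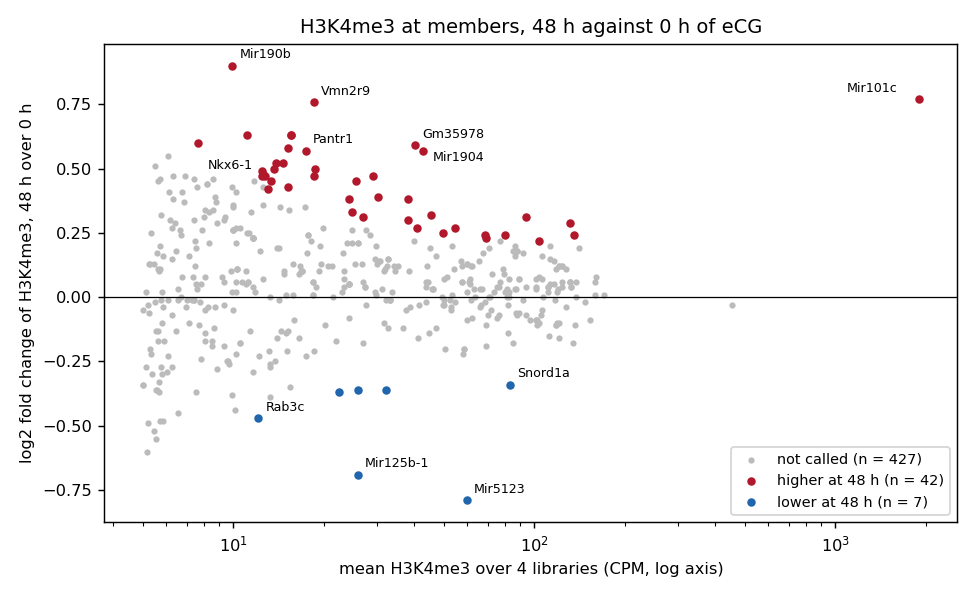
Log2 fold change of H3K4me3 at each member, 48 h over 0 h, against its mean level (CPM, log axis), with called members in red (42 higher) and blue (7 lower) and others in grey. Most members lie within 0.25 of 0, and Mir190b (0.90) and Mir5123 (-0.79) mark the largest rise and fall.

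Under every alternative fitted 5 members were called, and 3 of them were higher at 48 h. Vmn2r9 (chromosome 5, 108842947 to 108852510), a pheromone receptor gene of the vomeronasal organ, had 20.3 and 25.7 CPM at 48 h, against 15.3 and 12.7 at 0 h (log2 fold change 0.76 ± 0.12 SE, adjusted p = 1.15e-05). Its window, printed above, is poor in CpG, and no RNA-detected gene lies within 5000 bp. Gm35978 (chromosome 2, 26503927 to 26505347) had 45.3 and 50.4 CPM at 48 h, against 37.4 and 27.9 at 0 h (0.59 ± 0.09, adjusted p = 3.81e-06). It lies 105 bp from Notch1, a receptor of cell-to-cell signalling, whose H3K4me3 was 45.2 and 50.4 CPM at 48 h, against 37.4 and 27.9 at 0 h. The mark at both genes therefore cannot be told apart. Notch1 RNA was 38.3 ± 18.6 CPM at 48 h and 15.8 ± 1.68 at 0 h (SD, n = 3 each). Mir1904 (chromosome 13, 109903809 to 109903888), inside the cAMP phosphodiesterase gene Pde4d, had 49.9 and 50.8 CPM at 48 h, against 35.1 and 35.5 at 0 h (0.57 ± 0.08, adjusted p = 9.14e-07). These rises were named from calls without overlap of the groups, so in all 3 both 48 h libraries lay above both 0 h libraries. Of all genes tested, 50.1% had no overlap of the groups.

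The other 2 were lower at 48 h. Mir5123 (chromosome 4, 40850056 to 40850138), inside the galactosyltransferase gene B4galt1, had 40.2 and 45.2 CPM at 48 h, against 77.4 and 75.9 at 0 h (-0.79 ± 0.07, adjusted p = 7.05e-11). H3K4me3 of B4galt1 itself was 100 and 99.6 CPM at 48 h, against 121 and 118 at 0 h, and its RNA 261 ± 15.7 CPM at 48 h and 319 ± 14.4 at 0 h (SD, n = 3 each). Mir125b-1 (chromosome 9, 41581926 to 41582002), inside Mir100hg, had 17.4 and 21.3 CPM at 48 h, against 33.4 and 31.4 at 0 h (-0.69 ± 0.10, adjusted p = 1.96e-06). The RNA of Mir100hg was 1.51 ± 0.428 CPM at 48 h and 5.26 ± 2.04 at 0 h, and its H3K4me3 was 4.55 and 6.40 CPM at 48 h, against 6.41 and 6.09 at 0 h, with overlapping groups. Mir125b-2 on chromosome 16, which encodes the same mature 5p sequence, had 28.4 and 33.6 CPM at 48 h, against 35 and 27.8 at 0 h, with overlapping groups.

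The other named rises rested on fewer alternatives. Mir190b (chromosome 3, 90070020 to 90070099) had 11.8 and 13.6 CPM at 48 h, against 7.47 and 6.67 at 0 h (0.90 ± 0.16, adjusted p = 9.80e-05), the largest log2 rise among the members. Mir1906-1 in the imprinted Meg3 gene and Mir1906-2 on the X chromosome, which cannot be told apart by their counts, had 18.2 and 19.1 CPM at 48 h, against 13.1 and 11.8 at 0 h (0.63 ± 0.12, adjusted p = 0.0004). H3K4me3 of Meg3 itself was 44.5 and 44.6 CPM at 48 h, against 35 and 30.4 at 0 h, so it was higher at 48 h too. The separation of the mark at Mir1906-1 from that of Meg3 was not tested. C130071C03Rik had 12.8 and 13.8 CPM at 48 h, against 9.26 and 8.51 at 0 h (0.63). Pantr1 and Pantr2 flank the neural factor gene Pou3f3 on chromosome 1. Pantr1 had 19.1 and 22 CPM at 48 h, against 15.5 and 13 at 0 h (0.57), and Pantr2 15.1 and 21.0 CPM against 14.2 and 10.5 (0.58). In both genes the 48 h libraries lay above the 0 h libraries, as the rule of naming required. H3K4me3 of Pou3f3 itself was 19.0 and 21.9 CPM at 48 h, against 16.2 and 12.7 at 0 h. Whether the mark at Pantr1 and Pantr2 is separate from that of Pou3f3 was not tested. Dlx6os2 had 8.29 and 9.85 CPM at 48 h, against 6.35 and 6.09 at 0 h (0.60). 1700039E22Rik, which overlaps the kidney factor gene Pax2, had 15.4 and 18.7 CPM at 48 h, against 14 and 10.4 at 0 h (0.52). Without 0 h replicate 1 the calls of all 8 were lost, at adjusted p of 0.069 for Mir190b, 0.103 for the Mir1906 pair, 0.224 for C130071C03Rik, 0.101 for Pantr1, 0.123 for Pantr2, 0.441 for Dlx6os2 and 0.124 for 1700039E22Rik. Calls of the last 3 were also lost without 0 h replicate 2 (0.125, 0.123 and 0.221) and without 48 h replicate 2 (0.142, 0.17 and 0.0737). DESeq2 ended the calls of these 3 as well (0.0639, 0.154 and 0.0917), library totals alone those of Dlx6os2 (0.1) and 1700039E22Rik (0.0604), and the replicate block that of Dlx6os2 (0.133). Across alternatives the adjusted p of the 8 ran from 1.52e-08 to 0.441.

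The other named falls were smaller. Snord1a, inside the host gene Snhg16, had 65.8 and 78.6 CPM at 48 h, against 95.7 and 93.3 at 0 h (-0.34 ± 0.07, adjusted p = 0.00167). Snhg16 itself was at 73.1 and 87.9 CPM of H3K4me3 at 48 h, against 103 and 97.3 at 0 h, and its RNA at 11.3 ± 1.5 CPM at 48 h and 20.2 ± 1.37 at 0 h (SD, n = 3 each). Mir15b had 18.8 and 25.7 CPM at 48 h, against 33.0 and 26.1 at 0 h (-0.36), and Mir16-2 beside it 16.1 and 22.4 against 28.2 and 23.4 (-0.37). For both, the higher 48 h library was close to the lower 0 h library. Rab3c, a regulator of vesicle release, had 8.11 and 11.7 CPM at 48 h, against 15.7 and 12.8 at 0 h (-0.47). The noncoding Gm12505 had 28.9 and 26.3 CPM at 48 h, against 38.9 and 34.4 at 0 h (-0.36). Without 0 h replicate 1 the calls of all 5 were lost, at adjusted p of 0.136 for Snord1a, 0.729 for Mir15b, 0.681 for Mir16-2, 0.676 for Rab3c and 0.407 for Gm12505. Without 48 h replicate 1 those of Snord1a (0.0938), Mir15b (0.406), Mir16-2 (0.453) and Rab3c (0.455) were lost. DESeq2 ended the calls of Mir15b (0.198), Mir16-2 (0.199), Rab3c (0.204) and Gm12505 (0.07), and that of Rab3c was also lost with library totals alone (0.061) and with the replicate block (0.105). Across alternatives the adjusted p of the 5 ran from 2.19e-06 to 0.729.

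Among lineage transcription factors most log2 fold changes were positive, and 1 passed the test. Of 30 members 27 had a positive log2 fold change, with a median of 0.29 (0.16 to 0.41 over the alternatives), and Nkx6-1 was called (0.47 ± 0.14, adjusted p = 0.0255). Leaving out 0 h replicate 1 (0.55), leaving out 0 h replicate 2 (0.0671) and leaving out 48 h replicate 2 (0.146) each ended that call. So did library totals alone (0.108), DESeq2 (0.169) and the replicate block (0.114). The range of its adjusted p across alternatives was 0.000912 to 0.55. Per library, the median deviation from the mean of all 4 libraries was 0.02 and 0.27 at 48 h, against -0.07 and -0.19 at 0 h on the log2 scale, so that 48 h replicate 2 stood highest. Lineage factors with RNA counts and 5 CPM or more (n = 168) had a median of 0.18 with 75.6% positive, 26 called higher and 3 lower. All IDs of 5 to 20 CPM (n = 2555) had a median of 0.05 with 57.9% positive, 191 called higher and 92 lower. All IDs of 20 CPM or more (n = 12136) had a median of 0.05 with 65.6% positive, 1355 called higher and 359 lower. Of all genes of 5 CPM or more, 10.5% were called higher and 3.07% lower. Whether lineage factors differ from other genes was not tested. Mir101c was called higher (0.77 ± 0.22, adjusted p = 0.0159), although its groups overlapped. Without 48 h replicate 2 its log2 fold change was -0.51 (adjusted p = 0.016), so the direction rested on that library alone. Its adjusted p ranged from 2.77e-14 to 0.717 across alternatives.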

How the data were processed

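The authors deposited raw counts per Entrez gene ID, 1 table for RNA and 1 for H3K4me3, with no normalization that the values show. Per the submitters' processing notes, FastQC 0.11.5, Picard, STAR, kallisto and sleuth were used for RNA and Trimmomatic, Bowtie2 2.2.9, MACS2 2.2 and ChIPseeker 1.18.0 for H3K4me3, with build mm10. Which program counted, with what strand setting and over what H3K4me3 window per gene, was not stated. The H3K4me3 columns name a group, and their number only names a library. The 1 input DNA library was not used. Levels are CPM by library total. H3K4me3 at 48 h was compared with 0 h by edgeR 4.0.16 (R 4.3.3; glmQLFit and glmQLFTest, TMM, filterByExpr, Benjamini-Hochberg over 24476 genes), tested on simulated data. The SE and p use variation shared across genes and can be smaller than a gene's own spread. DESeq2 1.42.0 was an alternative, with other scalings, no filter, each library left out and a replicate block. Symbols and whole-gene coordinates came from a RefSeq table of GRCm38.p6, with entries for 465 members, 461 of them placed. Named members were the 10 highest, the 10 highest without an RNA-detected gene within 5000 bp, up to 3 per gene list, those at the threshold, and up to 10 rises and falls among calls without overlap. Other names were chosen after their values were seen. A few members that this rule names are not reported here. Members and lists were chosen with earlier results of these data known.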

Additional observations from a re-analysis of the deposited data

How the results depend on the processing

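Against 42 members called higher and 7 lower, library totals alone gave 18 and 16, DESeq2 14 and 3, the fit without a low-count filter 36 and 11, and members neither tied with another ID nor overlapping an RNA-detected gene (chosen after seeing the data) 20 and 2. Leaving out 1 library gave 3 to 46 higher and 2 to 13 lower. With 1 library left in a group, it is assumed to vary like the other group. Over all genes, 1554 higher and 508 lower became 945 and 862 with library totals and 611 and 253 with DESeq2, and leaving out 1 library gave 159 to 2070 and 123 to 694. A replicate block gave 24 members higher and 6 lower, and 908 and 372 genes. The labels do not say that same-numbered libraries are paired. Their deviations correlated at 0.0251 over genes tested and -0.383 over 14292 genes with a mean count over 100, which cannot settle whether they are. The crossed pairing, added after seeing the data, gave 87 members higher and 27 lower, and 3070 and 1074 genes. At Mir101c the log2 fold change was -0.51 to 1.43 with 1 library left out and reversed to -0.51 without 48 h replicate 2. The causes were not tested. The number of members, 476, was 342 at 10 CPM or more and 617 when 1 RNA count was allowed, and members near RNA-detected genes numbered 208 to 303 when either the distance or the RNA level was changed, and 157 with overlap and 1 CPM together. For the 20 named members with a call, 154 of 200 values kept call and direction, 45 lost the call and 1 reversed, and for the 36 without, 7 of 360 gave a call. With 2 libraries per group and members near 5 CPM, small differences were not detectable at this depth.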
